A study of Rattus norvegicus with 8 samples.

Results

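AP-1 (activator protein 1) is a family of transcription factor dimers built from Fos and Jun proteins, which Atf3 can also join. Many of its genes and of those of the early growth response (Egr) zinc finger factors are immediate early genes: MAP kinase cascades switch them on quickly and without new protein synthesis. In astrocytes they are known as early responders to growth factors, injury and cytokines. Described here are 10 AP-1 and Egr genes, read by symbol from the count table: Fos, Fosb, Fosl1, Fosl2, Jun, Junb, Jund, Atf3, Egr1 and Egr3. All 10 were found among the 28546 gene entries, and all 10 passed the low-count filter that left 14445 genes for testing.

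The 8 RNA-seq libraries came from astrocytes of pups of the Sprague Dawley rat strain. All groups are labelled with 12-273 BM melanoma cells, and none is labelled as astrocytes without melanoma. Melanoma cells with a scrambled hairpin made up the control (n = 2). For sh-APP (n = 3) their hairpin instead targeted APP, the amyloid precursor protein gene, under a single tag (shAPPa). For anti-Abeta (n = 3) the hairpin was the scrambled one and an anti-amyloid beta antibody was present. No source used here gives the pups' age or says whether a control antibody was used. One label speaks of co-culture, another of 24 h in medium from melanoma cells, and a further one of astrocyte medium put on the melanoma cells, and none says which held.

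Depth was similar across the libraries, at 34250464 to 47831595 counts. Astrocyte markers were present in all libraries: the 9 of the list, Gfap and Aqp4 among them, summed to 12300 CPM in both control libraries, 14900 to 17200 in sh-APP and 11500 to 11900 in anti-Abeta. CPM are counts scaled to library size with TMM factors. Gfap had means of 2910 CPM in control, 6530 in sh-APP and 3730 in anti-Abeta. Against control, edgeR called 7 of the 9 higher and 0 lower in sh-APP. In anti-Abeta it called Gfap, Aldh1l1, Fgfr3 and Sox9 higher and Aqp4 and Slc1a3 lower. Of 7 microglia markers counted, 6 had a mean under 1 CPM and Cx3cr1 had no count. The list summed to 10.5 to 21.8 CPM over all libraries, most of it Cd68. Of 3 tested, edgeR called only Tyrobp in sh-APP against control, higher by 2.84 ± 0.79 on the log2 scale (adjusted p = 0.00882). That call rested on few counts, 5 and 1 against 20, 33 and 29. Between the arms edgeR called Cd68 lower in sh-APP (-0.63, adjusted p = 0.0402), though the libraries overlapped. Of 5 endothelial markers 4 were under 1 CPM and Cldn5 had no count, with sums of 2.59 to 3.11 CPM in control, 6.14 to 8.37 in sh-APP and 3.30 to 5.67 in anti-Abeta. Neuron markers (9, with Slc17a6 at 0) summed to 332 to 358 CPM in control, 152 to 164 in sh-APP and 226 to 291 in anti-Abeta. Map2 (means of 246, 104 and 173 CPM in control, sh-APP and anti-Abeta) and Snap25 (68.3, 23.0 and 47.8) made up most of that sum. Of 8 neuron markers tested in sh-APP against control, Rbfox3, Tubb3 and Stmn2 were called higher by edgeR and Snap25, Map2 and Elavl4 lower. Oligodendrocyte lineage markers (8, none at 0) summed to 526 to 590 CPM over all libraries, most of it Olig2 (means of 473 to 522 CPM). Within that list Ugt8 fell in both arms (5.86 CPM in control, 1.13 in sh-APP and 3.71 in anti-Abeta), Pdgfra fell in sh-APP (33.7 to 16.9 CPM) and Cspg4 rose in anti-Abeta (5.45 to 10.6 CPM). Pericyte and fibroblast markers (7, none at 0) summed to 20.5 to 25.1 CPM in control, 32.0 to 34.8 in sh-APP and 22.7 to 28.2 in anti-Abeta. Of 7 melanocyte markers 5, among them Tyr, Dct and Mlana, were under 1 CPM, and the list summed to 66.2 to 81.2 CPM. Nearly all of that sum was Mitf and S100a1. In sh-APP against control edgeR called S100a1 higher and Mitf lower. These are levels of rat genes, and whether RNA of the melanoma cells was present was not tested. The part of these cell types in the results was not tested. In such bulk RNA a change in the number of cells of a type and a change in RNA per cell cannot be told apart.

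The stretch around the transcription start is one of the places where signals reach these genes, and it is shown here for 4 of them. RefSeq's promoter table (build GRCr8, later than the rn6 build named for the counts) held 6 of the 10 genes: Fosb, Fosl1, Fosl2, Junb, Jund and Egr1. Each stretch runs from 250 bases before the start to 50 after it, 5′ to 3′ on the gene's strand, at chr18:26736828-26737127 (plus) for Egr1, chr19:40080876-40081175 (plus) for Junb, chr16:18769722-18770021 (minus) for Jund and chr6:30039220-30039519 (minus) for Fosl2. Capitals mark matches, on either strand, to the AP-1 site TGACTCA, the cyclic AMP response element TGACGTCA, its core TGACG (which overlaps the full element), the EGR sites GCGTGGGCG and GCGGGGGCG, and the CArG box, the site of serum response factor.
Egr1: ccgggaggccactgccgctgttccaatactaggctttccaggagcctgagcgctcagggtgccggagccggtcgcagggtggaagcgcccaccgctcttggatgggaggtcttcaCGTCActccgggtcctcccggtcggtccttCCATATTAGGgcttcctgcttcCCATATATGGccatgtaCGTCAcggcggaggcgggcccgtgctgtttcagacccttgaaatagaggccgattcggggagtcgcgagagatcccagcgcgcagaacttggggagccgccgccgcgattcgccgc
Junb: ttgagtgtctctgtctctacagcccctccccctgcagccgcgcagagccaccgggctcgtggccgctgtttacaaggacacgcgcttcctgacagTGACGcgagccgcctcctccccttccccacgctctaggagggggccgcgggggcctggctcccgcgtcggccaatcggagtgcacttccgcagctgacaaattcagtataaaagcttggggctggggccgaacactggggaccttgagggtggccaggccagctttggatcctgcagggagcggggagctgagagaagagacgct
Jund: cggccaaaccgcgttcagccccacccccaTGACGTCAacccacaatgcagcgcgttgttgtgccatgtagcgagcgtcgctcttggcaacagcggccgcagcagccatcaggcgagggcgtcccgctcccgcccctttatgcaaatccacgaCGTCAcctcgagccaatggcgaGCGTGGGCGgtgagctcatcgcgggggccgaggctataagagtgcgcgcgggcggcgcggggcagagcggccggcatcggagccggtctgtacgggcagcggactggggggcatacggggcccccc
Fosl2: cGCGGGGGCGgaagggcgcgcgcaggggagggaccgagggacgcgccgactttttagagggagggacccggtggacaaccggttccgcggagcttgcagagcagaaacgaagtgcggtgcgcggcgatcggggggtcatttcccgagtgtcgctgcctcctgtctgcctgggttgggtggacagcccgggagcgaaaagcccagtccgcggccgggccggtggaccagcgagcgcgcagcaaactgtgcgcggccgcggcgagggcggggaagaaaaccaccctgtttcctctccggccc

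The 4 stretches hold different motifs. Egr1 had CArG boxes at -105 to -96 and -83 to -74 from the start, a motif found in 1.64% of the table's 33469 promoters, and TGACG at -135 to -131 and -66 to -62, found in 21.2%. Jund had the full TGACGTCA (1.83% of promoters) at -221 to -214, a further TGACG at -98 to -94 and the EGR site GCGTGGGCG (0.544%) at -76 to -68. Junb had a single TGACG at -155 to -151, and Fosl2 the EGR site GCGGGGGCG (2.73%) at -249 to -241. The AP-1 site TGACTCA, found in 4.63% of promoters, is absent from the 6 windows. GC content was 64.7% in Egr1, 65.3% in Junb, 69.7% in Jund and 70.7% in Fosl2, against a median of 51.7% over all promoters. A match describes letters and not a bound site, and its absence speaks of this window only.

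The comparison of sh-APP with control asks how astrocytes differ when the melanoma cells carry the APP hairpin. All 3 Jun genes, Fos, Fosl2 and Atf3 rose, by 1.53-fold to 2.05-fold, and Egr3 fell. Egr1, Fosl1 and Fosb did not pass the test. By edgeR's quasi-likelihood test at an adjusted p under 0.05, 6 of the 10 genes were called higher and 1 lower. Over all tested genes 53.7% were called in either direction, 25.8% higher and 27.9% lower. The median log2 fold change of the 10 genes was 0.62, against 0.03 over all genes.

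**Figure D1:**
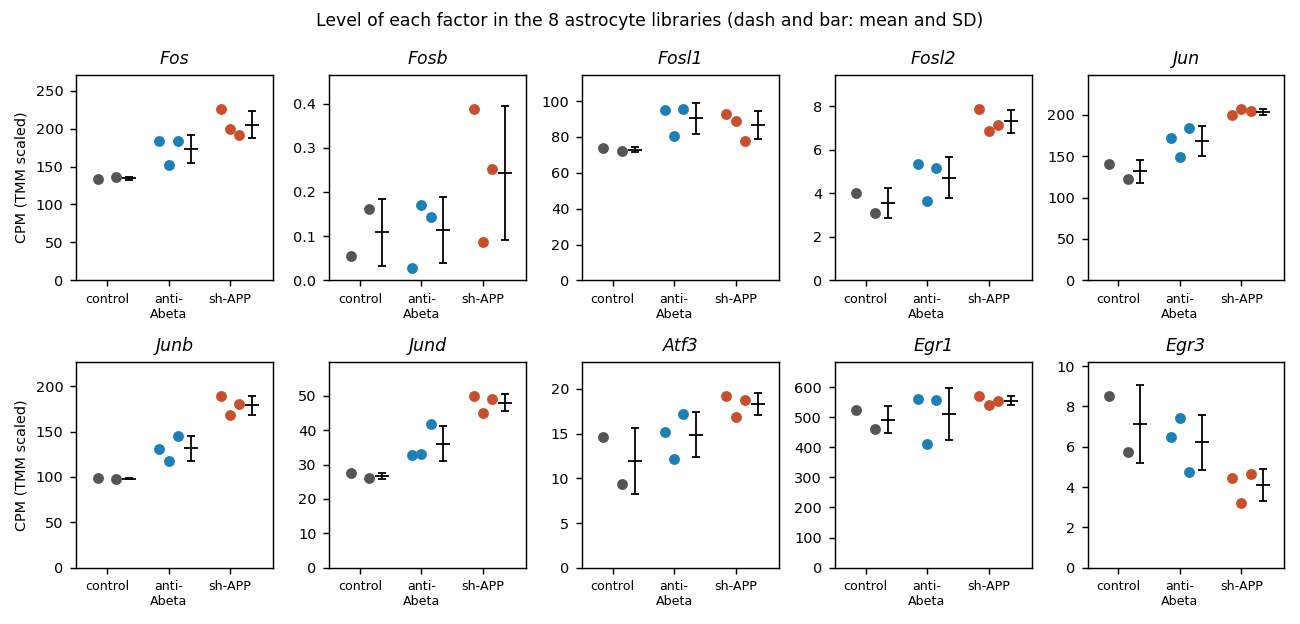
Level of each of the 10 genes in CPM after TMM scaling (vertical axes start at 0 and differ between panels) in control (n = 2), anti-Abeta (n = 3) and sh-APP (n = 3). Circles are libraries, and the dash with its bar is the mean and SD. Junb rises from 97.6 and 98.8 CPM in control to between 168 and 189 in sh-APP with anti-Abeta between them, while the Egr1 libraries of all groups lie between 410 and 570 CPM.

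Junb codes for a Jun protein known as a weaker activator of many targets than Jun itself. It stood at 98.8 and 97.6 CPM in the control libraries, at 189, 168 and 180 in sh-APP replicates 1 to 3, and at 131, 118 and 145 in anti-Abeta replicates 1 to 3. The 3 groups did not overlap: every anti-Abeta library lay above both control libraries and below every sh-APP library. The log2 fold change in sh-APP was 0.87 ± 0.09 (SE; adjusted p = 1.47e-05, edgeR), a 1.83-fold rise.

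Jund codes for the Jun protein that resting cells are known to hold. Its levels were 27.4 and 26.1 CPM in control, 49.9, 45.1 and 49.1 in sh-APP, and 32.9, 33.2 and 41.9 in anti-Abeta. As with Junb, the 3 groups were separate and anti-Abeta lay between. The log2 fold change was 0.85 ± 0.12 in sh-APP (adjusted p = 8.53e-05, edgeR).

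Jun, the founding member of the family and the main substrate of JNK kinases, stood at 141 and 122 CPM in control, 200, 207 and 204 in sh-APP, and 172, 149 and 184 in anti-Abeta. The sh-APP libraries were close together, and no library of any group overlapped another group. Jun rose by 0.63 ± 0.10 on the log2 scale in sh-APP (adjusted p = 0.000147, edgeR), 1.55-fold.

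Fos, which pairs with Jun proteins and cannot pair with itself, had 133 and 136 CPM in control, 226, 199 and 191 in sh-APP, and 184, 152 and 184 in anti-Abeta. Its order of groups was that of the Jun genes, again without overlap. The rise in sh-APP was 1.53-fold (log2 fold change 0.61 ± 0.10, adjusted p = 0.000248, edgeR).

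Fosl2, also called Fra-2, lacks the strong activation domain of Fos. It was a weakly counted gene, with 145 and 114 counts in control (4.03 and 3.08 CPM), 345, 320 and 312 in sh-APP (7.87, 6.86 and 7.14 CPM), and 187, 148 and 253 in anti-Abeta (5.34, 3.62 and 5.16 CPM). All sh-APP libraries lay above all others, while anti-Abeta overlapped control. Of the genes called, Fosl2 had the largest fold in sh-APP, a log2 fold change of 1.04 ± 0.22 (adjusted p = 0.00151, edgeR).

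Fosl1 (Fra-1) showed another order of groups. It had 73.9 and 72.0 CPM in control, 93.0, 88.9 and 77.8 in sh-APP, and 94.9, 80.5 and 95.7 in anti-Abeta. Both arms lay above control and overlapped each other. Its log2 fold change in sh-APP was 0.25 ± 0.10 and just missed the threshold (adjusted p = 0.0521, edgeR). It passed without sh-APP replicate 3 (0.0219) or anti-Abeta replicate 2 (0.021), and under 5 other settings, with adjusted p of 0.00209 to 0.0454. After the correction for gene span described below, its log2 fold change was only 0.10 (adjusted p = 0.361, edgeR).

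Fosb was close to silent, with 55 counts in all 8 libraries together. It had 2 and 6 counts in control, 17, 4 and 11 in sh-APP, and 1, 7 and 7 in anti-Abeta. The groups overlapped, its log2 fold change in sh-APP was 1.12 ± 0.98 (adjusted p = 0.364, edgeR), and a change of Fosb was not detectable at this depth.

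Atf3, a stress-induced factor of the ATF family that can pair with Jun proteins, stood at 14.6 and 9.37 CPM in control, 19.2, 16.9 and 18.8 in sh-APP, and 15.2, 12.2 and 17.2 in anti-Abeta. The control libraries were far apart for their mean, and all sh-APP libraries lay above them. Atf3 rose by 0.61 ± 0.19 on the log2 scale (adjusted p = 0.0168, edgeR), but missed the threshold when control replicate 2 was left out (0.34, adjusted p = 0.189). Atf3 overlaps Garin4 on the chromosome and Fosb a long noncoding RNA, and no source used here gives the strand setting of the counting, so their levels are less certain.

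Neither early growth response gene was called higher. Egr1, the serum-induced zinc finger factor, had 524 and 460 CPM in control, 570, 539 and 555 in sh-APP, and 562, 410 and 556 in anti-Abeta. The sh-APP libraries lay narrowly above control, and anti-Abeta spread across the whole range. Its log2 fold change in sh-APP was 0.17 ± 0.12 (adjusted p = 0.252, edgeR), which passed only without anti-Abeta replicate 2 (0.046) or with library totals alone (0.38, adjusted p = 0.0206), and its sign turned to -0.06 after a correction for gene span.

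Egr3, a relative that binds the same sites as Egr1, had 306 and 213 counts in control (8.51 and 5.75 CPM), 195, 150 and 203 in sh-APP (4.45, 3.22 and 4.65 CPM), and 227, 304 and 232 in anti-Abeta (6.48, 7.44 and 4.73 CPM). It was the single gene of the 10 whose sh-APP libraries all lay below control. Egr3 fell by 0.80 on the log2 scale (SE 0.25, adjusted p = 0.0158, edgeR). This call was lost without control replicate 1 (-0.48, adjusted p = 0.238) or sh-APP replicate 2 (-0.65, adjusted p = 0.0542).

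In all, the sh-APP and control libraries did not overlap for 9 of the 10 genes, Fosb being the exception. Over all tested genes 70.7% did not overlap in this comparison, so such separation was common. The calls of Fos, Fosl2, Jun, Junb and Jund held under all 19 other settings tried, each single library left out among them, with log2 fold changes of 0.35 to 1.25.

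The comparison of anti-Abeta with control asks how they differ when the antibody is present. The 3 Jun genes, Fos and Fosl1 rose, by up to 1.35-fold (Jund), and no gene of the 10 fell. By edgeR's test 5 of the 10 were called, all higher, against 29.2% called over all tested genes (12.7% higher and 16.6% lower). The median log2 fold change of the 10 genes was 0.34, against 0.03 over all genes. The control libraries are the same as in the comparison above, so the results of the 2 arms are not independent.

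In Junb the log2 fold change was 0.42 ± 0.09 (adjusted p = 0.00710, edgeR) and Jund of 0.43 ± 0.12 (0.0182). Jun had 0.36 ± 0.09 (0.0159), Fos 0.37 ± 0.10 (0.0179) and Fosl1 0.31 ± 0.10 (0.0357). For these 5 genes every anti-Abeta library lay above both control libraries, as was the case for 54.9% of all tested genes in one direction or the other. Fosl2 had 0.40 ± 0.22 (0.183), Atf3 0.31 ± 0.19 (0.242), Egr1 0.05 ± 0.12 (0.797), Egr3 -0.20 ± 0.25 (0.579) and Fosb 0.10 ± 1.02 (0.956), none of which passed, and for these 5 the groups overlapped.

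The calls of these rises depended on single libraries. Without control replicate 1 edgeR called 0 of the 10 genes, with 6 at an unadjusted p under 0.05 (adjusted p of 0.142 for Fos, 0.161 for Fosl1, 0.0575 for Jun, 0.0747 for Junb and 0.109 for Jund), and 439 genes were called in all. Without control replicate 2 only Junb was called, with 0.072 for Fos, 0.154 for Fosl1, 0.137 for Jun and 0.111 for Jund. The same was true without anti-Abeta replicate 3 (0.0598, 0.106, 0.0569 and 0.0559), and without anti-Abeta replicate 1 the calls of Fos (0.0574) and Fosl1 (0.0996) were lost. Without control replicate 1 the log2 fold changes were 0.33 for Fos, 0.32 for Fosl1, 0.45 for Jun, 0.42 for Junb and 0.46 for Jund. Without control replicate 2 Fos stood at 0.38, Fosl1 at 0.29, Jun at 0.26 and Jund at 0.39. Without anti-Abeta replicate 3 Fos stood at 0.32, Fosl1 at 0.27, Jun at 0.29 and Jund at 0.31. All of these log2 fold changes stayed above 0.

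**Figure D2:**
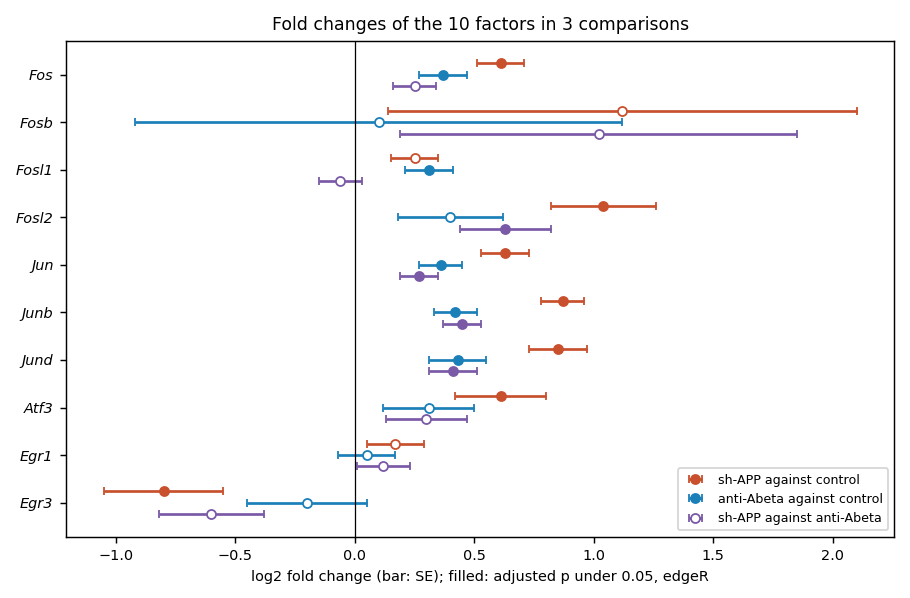
Log2 fold change of each gene with its SE (horizontal axis) in the 3 comparisons, from a single edgeR fit of 8 libraries. Filled circles passed an adjusted p under 0.05. For Fos, Jun, Junb and Jund the fold against control is larger in sh-APP (0.61 to 0.87) than in anti-Abeta (0.36 to 0.43), and Egr3 has a negative value in all 3 comparisons.

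The comparison of sh-APP with anti-Abeta asks where the 2 arms differ. Junb, Jund, Jun and Fosl2 were higher in sh-APP, by 1.21-fold to 1.55-fold, and none of the 10 was called lower. That is 4 of 10, against 26.1% called over all tested genes (10.1% higher and 16.0% lower). The median log2 fold change of the 10 genes was 0.29, against -0.01 over all genes. Libraries of the 2 arms did not overlap for 6 of the 10 genes, and for 41.3% of all tested genes.

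In Junb the log2 fold change was 0.45 ± 0.08 (adjusted p = 0.00252, edgeR) and Jund of 0.41 ± 0.10 (0.0117), and both calls held under all 19 other settings tried. Fosl2 had 0.63 ± 0.19 (0.0264), a call lost when sh-APP replicate 1 (0.0896) or 3 (0.0632) was left out, and likewise for anti-Abeta replicate 2 (0.0787). Jun had 0.27 ± 0.08 (0.0316), lost without any 1 of the sh-APP libraries (0.0700, 0.0711 and 0.0826) and without anti-Abeta replicate 1 (0.0594) or 2 (0.0650). The separation of the 2 arms was thus firmest for Junb and Jund.

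Fos stood at 0.25 ± 0.09 (adjusted p = 0.0555, edgeR) and passed under 5 other settings (0.0303 to 0.0495). Egr3 stood at -0.60 ± 0.22 (0.0694), and it passed without anti-Abeta replicate 3 (-0.76, 0.0287) and under 3 other settings. Atf3 had 0.30 ± 0.17 (0.215), Egr1 0.12 ± 0.11 (0.444), Fosl1 -0.06 ± 0.09 (0.656) and Fosb 1.02 ± 0.83 (0.411). Fosl1 thus differed from the other AP-1 genes in the sign of its value, though the test did not pass.

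Ratios of genes within a library do not depend on the scaling between libraries, and they show how the make-up of the family shifted. They are given as values only, without a test. Fosl1 had 0.542 counts for each count of Fos in control, 0.522 in anti-Abeta and 0.422 in sh-APP, while Fosl2 had 0.0264, 0.0271 and 0.0355. On the log2 scale the ratio of Fosl1 to Fos was -0.88 ± 0.05 in control (SD, n = 2), -0.94 ± 0.02 in anti-Abeta (n = 3) and -1.25 ± 0.07 in sh-APP (n = 3). The sh-APP libraries stood apart from all others in both ratios to Fos, and anti-Abeta overlapped control.

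Junb had 0.748 counts per count of Jun in control, 0.780 in anti-Abeta and 0.878 in sh-APP. The sh-APP libraries (log2 ratios of -0.08, -0.30 and -0.18) lay above all others, but narrowly, as control replicate 2 stood at -0.32. For Jund the log2 ratio to Jun was -2.29 ± 0.09 in control, -2.23 ± 0.14 in anti-Abeta and -2.09 ± 0.10 in sh-APP, which overlapped anti-Abeta but not control. The ratio of Egr3 to Egr1 showed the largest shift of those computed, from -6.13 ± 0.27 in control to -7.10 ± 0.26 in sh-APP, with -6.37 ± 0.55 in anti-Abeta. Its sh-APP libraries (-7.00, -7.39 and -6.90) lay below all others, of which anti-Abeta replicate 3 was nearest at -6.88.

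Other pairs showed no such separation. Fos and Jun had nearly equal counts in each group (1.02, 1.02 and 1.01 counts of Fos per count of Jun in control, anti-Abeta and sh-APP). For Atf3 to Jun the log2 ratio was -3.49 ± 0.31, -3.51 ± 0.09 and -3.48 ± 0.12. In both pairs the differences between groups were smaller than the spread within them.

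**Figure D3:**
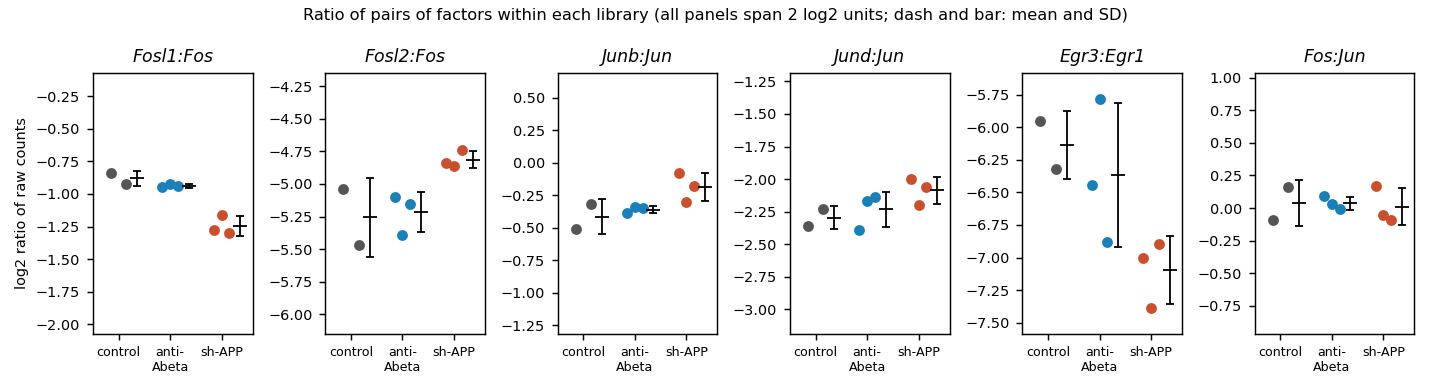
Log2 ratio of the raw counts of gene pairs within each library (vertical axes all span 2 log2 units), with circles for libraries and the dash and bar for mean and SD of control (n = 2), anti-Abeta (n = 3) and sh-APP (n = 3). The sh-APP libraries stand apart for Fosl1 to Fos and Fosl2 to Fos. For Junb to Jun and Egr3 to Egr1 they do not overlap the others, but by a narrow margin. All groups overlap for Fos to Jun.

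Gene span, the distance from start to end of a gene with its introns, moved with the fold changes of all genes. In sh-APP against control the median log2 fold change was 0.35 over the 1381 tested genes under 5 kb, 0.30 at 5 to 10 kb, -0.05 at 20 to 50 kb and -0.20 at 50 to 100 kb. Most of the 10 genes are short in RefSeq's GRCr8: Jund spans 1.68 kb, Junb 1.78, Fos 2.87, Jun 3.09, Egr1 3.80, Egr3 5.30, Fosb 7.18 and Fosl1 8.51 kb. Fosl2 spans 21.3 and Atf3 57.6 kb. In sh-APP the values of Junb, Jund, Jun and Fos were above the median of their class, and those of Fosl2 and Atf3 far above theirs. Those of Egr1 (0.17), Fosl1 (0.25) and Egr3 (-0.80) were below the median of their class. Fosb (1.12 ± 0.98) was too weakly counted to place. In anti-Abeta the medians were 0.21 under 5 kb and -0.09 at 50 to 100 kb.

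A fit that took this trend out of each library was added after the data were seen. In sh-APP against control it left the same 7 calls, with log2 fold changes of 0.35 for Fos (adjusted p = 0.00309), 0.38 for Jun (0.00253), 0.58 for Junb (7.98e-05), 0.55 for Jund (0.00094), 1.07 for Fosl2 (0.00114), 0.80 for Atf3 (0.00345) and a negative one for Egr3 (0.00449). Fos and the Jun genes thus kept part of their rise, while Fosl1 stood at 0.10 (0.361). In anti-Abeta against control only Junb was still called (0.26, adjusted p = 0.0317), with Fos at 0.22 (0.062), Jun at 0.22 (0.0753), Jund at 0.27 (0.0831) and Fosl1 at 0.23 (0.072). Between the arms Junb (0.32), Jund (0.28) and Fosl2 (0.65) were called higher and Egr3 (-0.69, adjusted p = 0.0417) lower in sh-APP, while Jun was not called (0.16, 0.146).

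**Figure D4:**
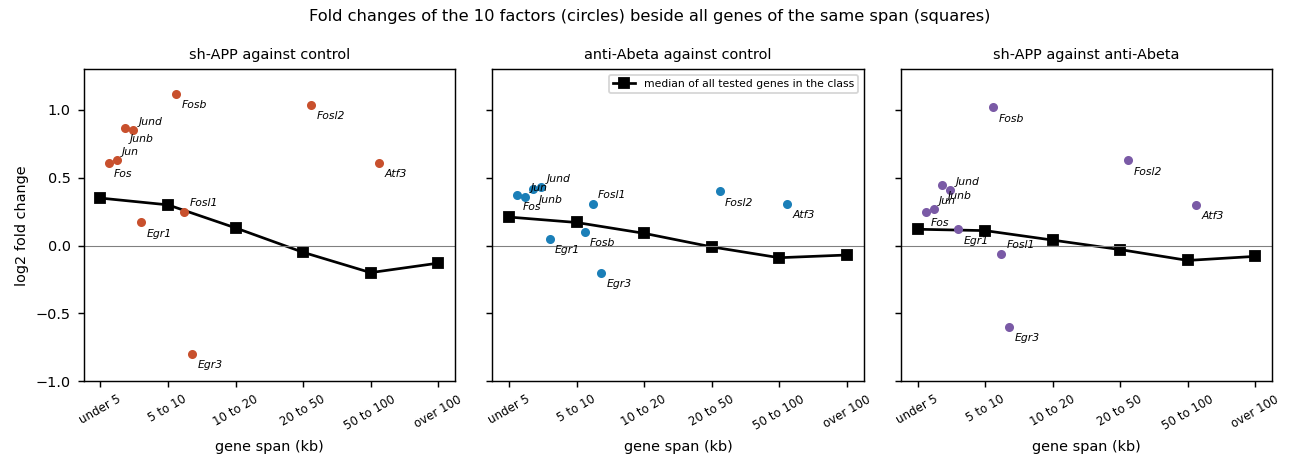
Log2 fold change (vertical axis) by class of gene span in kb (horizontal axis) in the 3 comparisons. Squares are the median of all tested genes in the class, and circles are the 10 genes, set slightly apart within their class. In sh-APP against control the squares go from 0.35 under 5 kb to -0.20 at 50 to 100 kb. Junb, Jund, Fosl2 and Atf3 lie above them, and Egr1, Fosl1 and Egr3 below.

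Partners and relatives of the 10 genes moved in both directions. Of 14 tested genes in a list of other AP-1 partners, EGR relatives and EGR co-regulators, sh-APP had 7 higher and 2 lower than control. That is 64.3% called, against 53.7% over all tested genes. The median log2 fold change was 0.49, against 0.03 over all genes. Nab1 and Nab2, co-repressors that bind EGR proteins, went opposite ways: Nab1 from 133 ± 11 CPM in control to 64.4 ± 4.53 in sh-APP (log2 fold change -1.05 ± 0.12, adjusted p = 2.21e-05, edgeR), and Nab2 up from a mean of 42.8 to 65.5 ± 2.20 CPM (0.61 ± 0.09). Batf3, a small partner of Jun proteins, rose by 1.31 ± 0.27. In anti-Abeta against control 3 of the 14 rose and 1 fell (28.6% called, against 29.2% over all tested genes, median 0.26). The latter was Nab1 at -0.60 ± 0.12 (adjusted p = 0.00511, edgeR). Without control replicate 1 these counts were 0 and 1, and they were 1 and 1 without control replicate 2, with only the groups compared or with the replicate block.

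Egr4, a relative of Egr1 known mostly from neurons, was barely counted. It had 2 and 2 counts in control, 34, 23 and 33 in sh-APP, and 15, 12 and 13 in anti-Abeta, so the groups did not overlap. The ratio to control was 12.2 in sh-APP (95% counting interval 4.61 to 45.8) and 5.82 in anti-Abeta (2.10 to 22.4), by exact binomial intervals that cover counting error only. Egr4 was called in both arms (adjusted p = 0.00152 and 0.0285, edgeR). The call in anti-Abeta was lost with limma-voom (0.0691), with the replicate block (0.0565), with only the groups compared (0.0577), and without either control library (0.157 and 0.120) or anti-Abeta replicate 1 (0.0649).

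Of 17 tested kinases and serum response regulators upstream, sh-APP had 4 higher and 7 lower than control (median -0.23). The share called was 64.7% in sh-APP and 52.9% in anti-Abeta, against 53.7% and 29.2% over all tested genes. Anti-Abeta had 3 higher and 6 lower (median -0.14), and 0 and 3 without control replicate 1. Mapk9, the kinase JNK2, fell by 0.70 on the log2 scale in sh-APP (128 ± 11 to 78.5 ± 1.37 CPM). Crem, a factor of the cyclic AMP pathway, fell by 0.93 (65.3 ± 0.0469 to 34.4 ± 2.20 CPM), and Map2k2, a kinase of the MAP kinase cascade, rose by 0.70 (129 ± 8.31 to 209 ± 9.99 CPM). Mapk9 and Crem also fell in anti-Abeta, by 0.48 and 0.63, and these calls held with each library left out.

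Of 30 other immediate early genes tested, sh-APP had 11 higher and 8 lower than control, or 7 and 5 without control replicate 1. The split turned to 5 higher and 10 lower with the span correction, and was 12 and 4 with library totals alone and 9 and 9 with the replicate block. In the main fit 63.3% of the list was called, against 53.7% over all tested genes. The list's median was 0.05, against 0.03 over all genes. Zfp36, which binds and destabilises messenger RNAs, rose from 40.9 ± 0.109 to 62.3 ± 3.85 CPM (log2 fold change 0.61 ± 0.09). Sgk1, a kinase induced by serum and glucocorticoids, fell by 1.10 (45.5 ± 3.05 to 21.2 ± 0.374 CPM), Klf10, a factor induced by TGF-beta, by 0.82, and Tiparp, a target of the aryl hydrocarbon receptor, by 0.69. In anti-Abeta against control 5 rose and 4 fell (30% called, against 29.2% over all tested genes, median 0.07). Few or none of these calls held with either control library left out. With 1 of the anti-Abeta libraries 1 and 3 left out, edgeR called 0 higher and 2 lower. With the replicate block the counts were 1 and 4, with only the groups compared 0 and 4, and with limma-voom or the span correction 1 and 6. RLE factors gave 2 and 7, DESeq2 6 and 7, and library totals alone 9 and 2, so this list had no stable direction in anti-Abeta.

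By edgeR, textbook AP-1 target genes were called less often than all tested genes in both arms against control, and in both directions in sh-APP. The shares called were 33.3% in sh-APP and 13.3% in anti-Abeta, against 53.7% and 29.2% over all tested genes. Between the arms 33.3% were called, against 26.1%. The lower share in anti-Abeta did not hold under every setting. Mmp3, Mmp9 and Mmp13 had means under 1 CPM in each group. Of 15 tested, sh-APP had 2 higher and 3 lower than control (median 0.21), but 5 and 2 with library totals alone and 4 and 3 with only the groups compared. Anti-Abeta had 0 higher and 2 lower (median 0.12) in edgeR's test, 2 and 3 in DESeq2's, 1 and 3 with the replicate block or no low-count filter, 3 and 1 with library totals alone, 2 and 2 with upper-quartile factors or without anti-Abeta replicate 2, and 0 and 1 without either control library or anti-Abeta replicate 3. Ccl2, the chemokine for monocytes, fell by 0.90 in sh-APP and by 0.56 in anti-Abeta, and Ccnd1, cyclin D1, went from 2250 ± 78.3 to 1440 ± 162 CPM in sh-APP (-0.64 ± 0.11) and had -0.01 ± 0.11 in anti-Abeta (adjusted p = 0.935, edgeR). Plau, the urokinase, fell by 0.45 in sh-APP. It did not pass when control replicate 1 was left out (-0.26, adjusted p = 0.209) or with library totals alone (-0.24, 0.111), and the value in anti-Abeta was 0.33 ± 0.13 (0.0798). That value passed without sh-APP replicate 2 (0.0291), with upper-quartile factors (0.0461), with library totals alone (0.48, 0.0101) and with only the groups compared (0.0463). Spp1, osteopontin, had 0.17 ± 0.11 in sh-APP (adjusted p = 0.217, edgeR), which passed with library totals alone (0.37, 0.00882) or when sh-APP replicate 2 was left out (0.27, 0.0319). In anti-Abeta it fell by 0.35, a call lost without either control library (0.166 and 0.0898) or anti-Abeta replicate 3 (0.0977), and with library totals alone (-0.19, 0.174).

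Of 9 stress response genes usually induced together with Atf3, sh-APP had 4 higher and 2 lower than control (median 0.24) by edgeR. Anti-Abeta had 2 higher and 0 lower (median 0.29). The shares called were 66.7% and 22.2%, against 53.7% and 29.2% over all tested genes. DESeq2 called 1 lower in anti-Abeta, and the span correction called 3 lower beside 2 higher, Gadd45a among them (-0.30, adjusted p = 0.0218). Gadd45a was also called lower there without anti-Abeta replicate 2 (-0.23, 0.023). Trib3, a pseudokinase of that response, rose from 0.668 ± 0.354 to 2.56 ± 0.285 CPM (log2 fold change 1.93 ± 0.40). Sesn2, sestrin 2, rose by 0.88 ± 0.12 and Ppp1r15a, which reverses the block of translation, by 0.54 ± 0.08, while Gadd45a, a DNA damage response gene, fell by 0.59. The 2 calls in anti-Abeta, Sesn2 (0.45) and Ppp1r15a (0.36), were lost without control replicate 1 (0.218 and 0.0793), and Sesn2 also without anti-Abeta replicate 3 (0.0595).

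**Figure D5:**
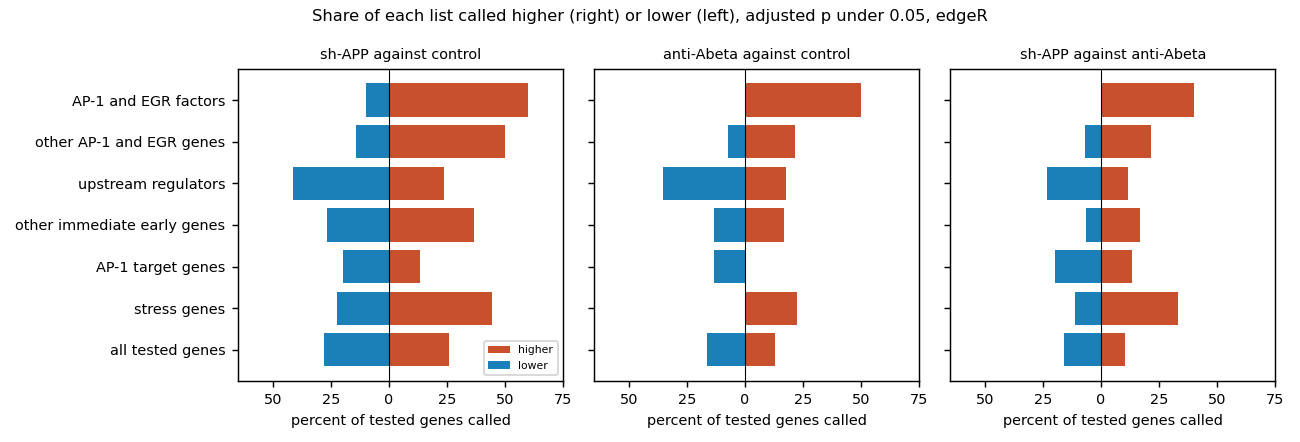
Share of the tested genes of each list that was called higher (to the right of 0) or lower (to the left) at an adjusted p under 0.05 by edgeR, in percent (horizontal axis), in the 3 comparisons, with all 14445 tested genes as the lowest bar. The 10 AP-1 and EGR genes were mostly called higher in sh-APP (6 higher, 1 lower), the upstream regulators more often lower (4 higher, 7 lower).

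The pattern over the 8 libraries was also compared with all other tested genes of at least 5 CPM, 10093 candidates (10094 for Fosb), by the root mean square difference of log2 CPM after centring each gene on its mean. The nearest to Junb were Il11ra1 (0.0334) and Oaf (0.0387), and the nearest to Jund Rbm38 (0.0348) and Klhl25 (0.0430). For Fos they were Gga1 (0.0334) and Dpm2 (0.0350), and for Jun Twf2 (0.0413) and Cux1 (0.0446). None of these nearest genes was itself among the 10.

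Egr3 had neighbours at larger distances, Taf1b (0.125) and Ccp110 (0.159), as did Atf3 with Pinx1 and Dopey2 (0.124 each). The distance is not scaled to a gene's own root mean square, which was 0.421 for Egr3, 0.325 for Atf3 and 0.158 for Egr1. Fosl2 was nearest to Srxn1 (0.0801) and Rgs3 (0.0926), Fosl1 to Dhps (0.0423) and Slc38a3 (0.0455), Egr1 to Sat2 (0.0634) and Dcaf12 (0.0682), and Fosb to Gfral (0.474) and Il34 (0.494). These values share libraries and scaling, and 10 of the 20 nearest genes overlap another gene.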

How the data were processed

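The authors deposited raw counts per gene symbol. The submitters' processing notes name build rn6 and, without roles, STAR 2.6.0a, HTSeq 0.11.1, Trimmomatic 0.36, FastQC 0.11.7, DESeq2 1.24.0 and SAMtools 1.9. No source used here gives the library kit or strand setting. Totals ran from 34250464 to 47831595, and 8853 of 28546 entries held no count.

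One model of group alone, with 5 residual degrees of freedom, was fitted to all 8 libraries in edgeR 4.0.16 under R 4.3.3: filterByExpr (minimum count 10, total 15), TMM factors, the robust quasi-likelihood test, and Benjamini-Hochberg adjustment over 14445 genes at 0.05. The SE is the log2 fold change divided by the root of F. Alternatives used DESeq2 1.42.0, limma 3.58.1 (voom), other factors, filters and samples, and the replicate number as a block. Loess on gene span (known for 85.9% of tested genes) was added after the data were seen. The tests were tried on simulated counts in which few genes were changed. That check does not cover scaling where as many genes differ as were called here. Chi-square per degree of freedom between replicates was 17.5 to 47.0, so none repeat.

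Named are the 10 genes, up to 4 called genes of each other list by smallest p, and the 2 nearest in pattern to each. One gene this rule names is not reported here. These genes and lists were chosen with earlier results of these data known. Of the 20 named list genes 7 overlap another gene in RefSeq (Crem, Mapk9, Klf10, Tiparp, Plau, Gadd45a and Sesn2), and of the 20 nearest in pattern 10, which makes their levels less certain. The labels do not say whether libraries came from separate cultures, so p-values measure the spread between these libraries, which may be technical.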

Additional observations from a re-analysis of the deposited data

How the results depend on the processing

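Of 19 other settings, 18 were planned. No named gene changed sign while called. The number of the 10 genes called in sh-APP against control kept within 1.5 times of 7 in all, with 6 to 9 when single libraries were left out (all genes 5942 to 7954). In anti-Abeta against control it was 5, and fell to 1 with the span correction and to between 0 and 5 over the libraries left out (all genes 439 to 4775, against 4223). Between the arms it was 4, with 2 to 5 over the libraries left out (all genes 2233 to 3582, against 3768). With a control library left out, the lone control is assumed to vary like the other groups. Scaling by library totals alone shifted the median log2 fold change of all genes to 0.23, 0.18 and 0.04, and the split of calls to 5174 higher and 3091 lower in sh-APP (3723 and 4027 with TMM), 3590 and 1417 in anti-Abeta (1832 and 2391), and 1923 and 1961 between the arms (1452 and 2316). With upper-quartile factors the split in anti-Abeta was 2391 and 2047, and the median in sh-APP was 0.11. With library totals Egr1 in sh-APP lay at 0.38, or 0.15 above that median.

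Replicate numbers are shared between groups, but nothing says they mark a shared culture. Deviations of same-numbered libraries correlated at -0.01 to 0.11, and not every library correlated best with its own number. With the replicate block, 7, 5 and 4 of the 10 genes were called in the 3 comparisons, as without it, and 7328, 3480 and 3675 of all genes. Depth limits Fosb and Egr4 most, and among other named genes Trib3 (15 and 34 counts in control) and Batf3 (54 and 66).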

Other observations

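Further genes of the lists, chosen after their values were seen, moved with Fos and Jun or against them in sh-APP against control. Nr4a1, an orphan nuclear receptor of the immediate early class, had 3.83 ± 0.735 CPM in the 2 control libraries and 8.16 ± 1.28 (SD) in the 3 of sh-APP, and rose by 1.09 on the log2 scale (adjusted p = 0.00119, edgeR). Ier2 rose from 33.5 ± 5.26 to 63.0 ± 7.98 CPM (0.91), Arc from 23.6 ± 0.371 to 40.5 ± 3.48 (0.78) and Trib1 from 46.8 ± 1.86 to 79.3 ± 6.90 (0.76). Mkl1, a co-activator of serum response factor, rose from 9.47 ± 0.331 to 17.5 ± 2.13 CPM (0.89), while Elk3, a partner of that factor, fell from 111 ± 8.03 to 68.3 ± 8.27 (-0.70). Mapk8, the kinase JNK1, fell from 27.4 ± 3.55 to 13.4 ± 2.01 CPM (-1.03). These calls held under all 19 other settings. Egr2 stood at 96.8 ± 4.57 CPM in control and 101 ± 2.76 in sh-APP (adjusted p = 0.595, edgeR), and Npas4 had no count in any library.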
